A study of Mus musculus with 2 samples.

Results

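The genes described here encode 10 isotypes of tubulin, the protein of microtubules, 5 of the alpha subunit (Tuba1a, Tuba1b, Tuba1c, Tuba4a and Tuba8) and 5 of the beta subunit (Tubb2a, Tubb2b, Tubb4b, Tubb5 and Tubb6). They were taken by name and found by joining the symbols of a transcript table to the gene tables by gene identifier, and all 10 were found among 55536 Ensembl genes. The source of the RNA was the gastrocnemius, a large muscle of the calf, and the animals were 4-day-old females of B6CASTF1/J, the F1 hybrid of the strains C57BL/6J and CAST/EiJ. Total RNA was sequenced. The series held a single group of 2 libraries, biological replicates 1 and 2, from animals that the labels number 3 and 4 under a single donor record. Each library was made from 300 ng of whole-tissue RNA with ERCC spike-in transcripts, and there was no treatment and no other genotype. Without a contrast between conditions no test was made, and the spread between the libraries (SD, n = 2) is the measure of error. The libraries held 30961087 and 36246031 expected counts, which are read counts in which a read that maps to several genes is divided among them.

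Microtubules are built from dimers of an alpha and a beta tubulin, and the isotypes of each subunit differ mainly near the carboxyl end of the protein, in a tail on the microtubule surface that enzymes modify. A terminal tyrosine of most alpha tubulins is removed and put back in a cycle that marks long-lived and newly grown microtubules, and detyrosinated microtubules take part in the mechanics of muscle. When a myoblast becomes a muscle fibre, microtubules are no longer organised from a centrosome and form a lattice that starts from nuclear envelopes and Golgi elements. The cell also adjusts tubulin mRNA to the amount of free tubulin, by a pathway in which TTC5 recognises the opening residues of a tubulin protein as it leaves the ribosome.

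The coding sequences showed how close the members are to each other, which bears on how reads could be told apart. In the GENCODE M21 transcripts (build mm10, the C57BL/6J genome), the coding sequences of Tuba1a, Tuba1b and Tuba1c were 97.6% to 98.4% identical to each other, and those of Tubb2a and Tubb2b 96.5%. Tuba4a shared 85.3% to 85.6% with the Tuba1 genes and Tuba8 80.3% to 81.1%. Beta pairs other than Tubb2a with Tubb2b shared 80.7% to 84.8%, and Tuba1b and Tubb5 shared 58.9% across the subunits. The last 60 coding bases of Tuba1c, Tuba4a and Tuba8, stop codon included, are shown 5′ to 3′ because the codon before the stop, in capitals, sets whether the protein ends in tyrosine.
Tuba1c, chr15:99037950-99038009, plus strand: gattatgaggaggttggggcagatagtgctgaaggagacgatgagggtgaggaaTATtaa
Tuba4a, chr1:75215622-75215681, minus strand: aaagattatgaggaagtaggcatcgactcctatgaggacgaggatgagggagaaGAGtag
Tuba8, chr6:121226020-121226079, plus strand: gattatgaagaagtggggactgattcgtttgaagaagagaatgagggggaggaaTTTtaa
The last codon before the stop was the tyrosine codon TAT in Tuba1c, Tuba4a ended in the glutamate codon GAG and Tuba8 in the phenylalanine codon TTT. Tuba4a protein is thus made without the terminal tyrosine, as is known of this isotype.

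The same stretch of 4 beta members is shown because it holds the tail in which isotypes differ, with capitals in Tubb2b and Tubb4b where the base differs from Tubb2a. Tubb5 has a shorter coding sequence and is shown without capitals.
Tubb2a, chr13:34074468-34074527, minus strand: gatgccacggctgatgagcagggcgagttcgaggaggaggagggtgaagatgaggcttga
Tubb2b, chr13:34127471-34127530, minus strand: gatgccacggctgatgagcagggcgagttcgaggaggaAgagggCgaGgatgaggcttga
Tubb4b, chr2:25222308-25222367, minus strand: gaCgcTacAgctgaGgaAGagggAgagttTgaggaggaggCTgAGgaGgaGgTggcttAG
Tubb5, chr17:35834982-35835041, minus strand: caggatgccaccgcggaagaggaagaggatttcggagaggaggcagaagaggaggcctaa
Over these 60 bases Tubb2b differed from Tubb2a at 3 positions and Tubb4b at 17.

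The opening 24 coding bases of the highest and the lowest printed member of each subunit by TPM are shown for the codons of the opening residues that tubulin autoregulation recognises, the 12 bases in capitals. TPM is transcript abundance scaled for length and depth.
Tuba4a, chromosome 1: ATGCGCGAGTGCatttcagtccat
Tuba8, chromosome 6: ATGAGGGAATGCatatcggtccat
Tubb5, chromosome 17: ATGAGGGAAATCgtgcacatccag
Tubb2b, chromosome 13: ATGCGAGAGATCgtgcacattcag
Among the 9 members examined in this way, those on chromosomes 1, 2, 6, 13, 15 and 17, the fourth codon was TGC in all 5 alpha genes and ATC in all 4 beta genes, and the third was GAG or GAA. Tuba1a, Tuba1b and Tuba1c had the same 12 opening bases, and the 9 genes had 7 different openings in all.

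All 10 genes were expressed, and 6 of them at similar, high levels. Every member reached 1 TPM in both libraries, the level at which 13336 genes of the series counted as detected. By mean TPM the order was Tuba4a, Tubb5, Tuba1b, Tuba1a, Tubb4b, Tubb6, Tubb2a, Tubb2b, Tuba1c and Tuba8. The leading 6 stood above 96.2% to 97.1% of the detected genes, and the lowest, Tuba8, above 49.5%. The order was not firm throughout, since the libraries' values overlapped in 4 of the 9 pairs of neighbours, namely Tuba4a with Tubb5, Tubb5 with Tuba1b, Tubb4b with Tubb6 and Tubb2b with Tuba1c. The gap between Tubb6 and Tubb2a was wide, with Tubb6 2.86-fold higher in TPM in replicate 1 and 3.01-fold in replicate 2. In whole muscle, fewer cells of a type and less RNA per cell cannot be told apart, so these levels are averages over fibres and all other cells.

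**Figure D1:**
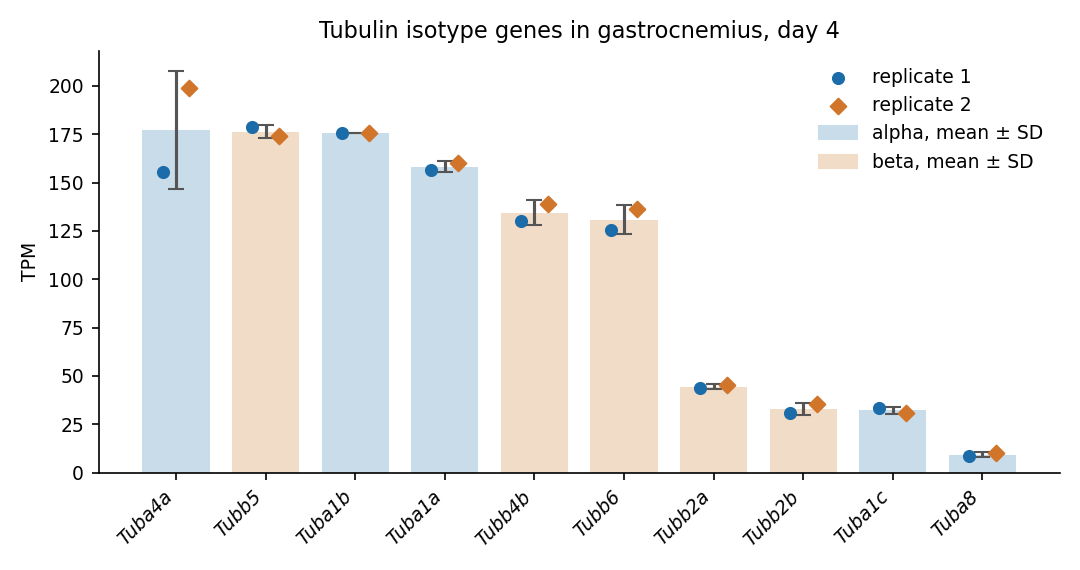
TPM of the 10 tubulin genes, ordered by mean level; bars are means and whiskers SD over both libraries, points are the libraries, and colour marks the subunit. Tuba4a, Tubb5, Tuba1b, Tuba1a, Tubb4b and Tubb6 stand at 125 TPM or more in both libraries and the other 4 at 45.3 TPM or less, with the widest gap between libraries at Tuba4a (156 and 199 TPM).

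The alpha pool was shared almost evenly by Tuba4a, Tuba1b and Tuba1a, with minor parts from Tuba1c and Tuba8. Tuba4a, an isotype abundant in adult striated muscle, lies on the minus strand of chromosome 1 (75214228 to 75219865). It had 156 TPM in replicate 1 and 199 TPM in replicate 2, or 32.0% ± 3.62 of the TPM of the 5 alpha genes. Replicate 2 was the higher library. By TPM of the gene tables, Tuba4a was behind Tubb5, Tuba1b and Tuba1a in replicate 1 and ahead of all 9 other members in replicate 2. Against Tuba1b and Tuba1a, other measures did not show that switch. By expected counts Tuba4a was below both in each library, at 0.766 and 0.915 times Tuba1b. By TPM of the other quantification, a separate deposited transcript table, it was above both, at 1.03 and 1.28 times Tuba1b. Tuba1b, a broadly expressed isotype (chromosome 15, 98931425 to 98934565, minus strand), had 176 TPM in each library and a share of 31.9% ± 1.91. Tuba1a, best known from developing neurons (chromosome 15, 98949837 to 98953703, minus strand), had 156 and 160.1 TPM in replicates 1 and 2 and a share of 28.7% ± 1.20. In both libraries Tuba1b stood above Tuba1a in TPM, 1.13-fold in replicate 1 and 1.10-fold in replicate 2.

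The other alpha genes were far lower. Tuba1c (chromosome 15, 99029891 to 99038110, plus strand) had 33.4 TPM in replicate 1 and 31.0 TPM in replicate 2, a share of 5.85% ± 0.647. Tuba8, known from muscle, heart, brain and testis (chromosome 6, 121210696 to 121226854, plus strand), had 8.39 and 10.2 TPM, a share of 1.68% ± 0.13. Of the members shown above without a terminal tyrosine codon, Tuba4a stood 18.6-fold above Tuba8 in TPM in replicate 1 and 19.5-fold in replicate 2. That ratio was 12.1 and 11.95 by expected counts and 27.6 and 29.2 by TPM of the other quantification. The Tuba1 genes lie within 107 kb of chromosome 15 (98931425 to 99038110). Pooled, they held 69.0% of alpha TPM in replicate 1 and 63.7% in replicate 2, at nearly the same summed level, 365 and 367 TPM.

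Among beta genes Tubb5 led, Tubb4b and Tubb6 followed at like levels and the Tubb2 pair was low. Tubb5, a broadly expressed isotype (chromosome 17, 35833921 to 35838306, minus strand), had 179 TPM in replicate 1 and 174 TPM in replicate 2, or 34.0% ± 1.63 of the TPM of the 5 beta genes. Tubb4b, an isotype of many tissues and of cilia (chromosome 2, 25222160 to 25224702, minus strand), had 130.0 and 139 TPM, a share of 25.9% ± 0.471. Tubb6, which in mouse muscle is high during early growth and regeneration (chromosome 18, 67390717 to 67402749, plus strand), had 125 and 136 TPM, a share of 25.2% ± 0.75. Tubb5 was above both in TPM in each library, while Tubb4b and Tubb6 differed only 1.04-fold and 1.02-fold in replicates 1 and 2.

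Tubb2a and Tubb2b, best known as neuronal isotypes, lie within 56.2 kb of chromosome 13 (34074274 to 34078007 and 34126748 to 34130466, both minus strand). Tubb2a had 43.8 TPM in replicate 1 and 45.3 TPM in replicate 2, a share of 8.58% ± 0.041. Tubb2b had 30.7 and 35.3 TPM, a share of 6.35% ± 0.446. Tubb2a was the higher of the pair by TPM, 1.43-fold in replicate 1 and 1.28-fold in replicate 2, but by expected counts the ratio of Tubb2a to Tubb2b was 1.07 and 0.931. The 5 neuronal marker genes Snap25, Rbfox3, Elavl4, Nefl and Syp were all under 1 TPM and summed to 0.94 TPM in replicate 1 and 0.67 in replicate 2, and the neuronal beta tubulin gene Tubb3 had 0.34 and 0.37 TPM.

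Summed alpha and beta TPM were close to equal. In replicate 1 the 5 alpha genes held 529 TPM and the 5 beta genes 509 TPM, and in replicate 2 they held 576 and 529.9 TPM. The ratio of alpha to beta TPM was 1.04 in replicate 1 and 1.09 in replicate 2, a mean of 1.06 ± 0.0322. Which subunit was ahead depended on the measure. By expected counts, which are not scaled for length, beta was ahead, at ratios of 0.884 and 0.901. In the other quantification, a separate transcript table that the authors deposited, alpha was ahead, at 1.16 and 1.19 by TPM.

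The leading alpha gene also depended on the measure. By expected counts Tuba4a held 27.4% of the alpha genes, below Tuba1b at 32.7% and Tuba1a at 30.6%, while in the other quantification it led with 37.3% of TPM. The effective length of a transcript is the number of positions at which a read can start. For a gene it is the mean over its transcripts, weighted by their shares of TPM. The gene tables gave Tuba4a an effective length of 1415 nt in replicate 1 and 1325 nt in replicate 2. Its transcript with the most counts is 2083 nt long, but the shorter Tuba4a-206 (1205 nt) and Tuba4a-207 (346 nt) also enter that mean. With the counts of every member divided by the effective length of its transcript with the most counts, Tuba4a held 24.5% ± 2.21, Tuba1b 35.3% and Tuba1a 31.9% of alpha, and the alpha to beta ratio was 0.971. Tubb5 led the beta genes under all 4 measures, with 34.0% by TPM, 33.3% by length of the leading transcript, 44.1% by expected counts and 38.8% in the other quantification.

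**Figure D2:**
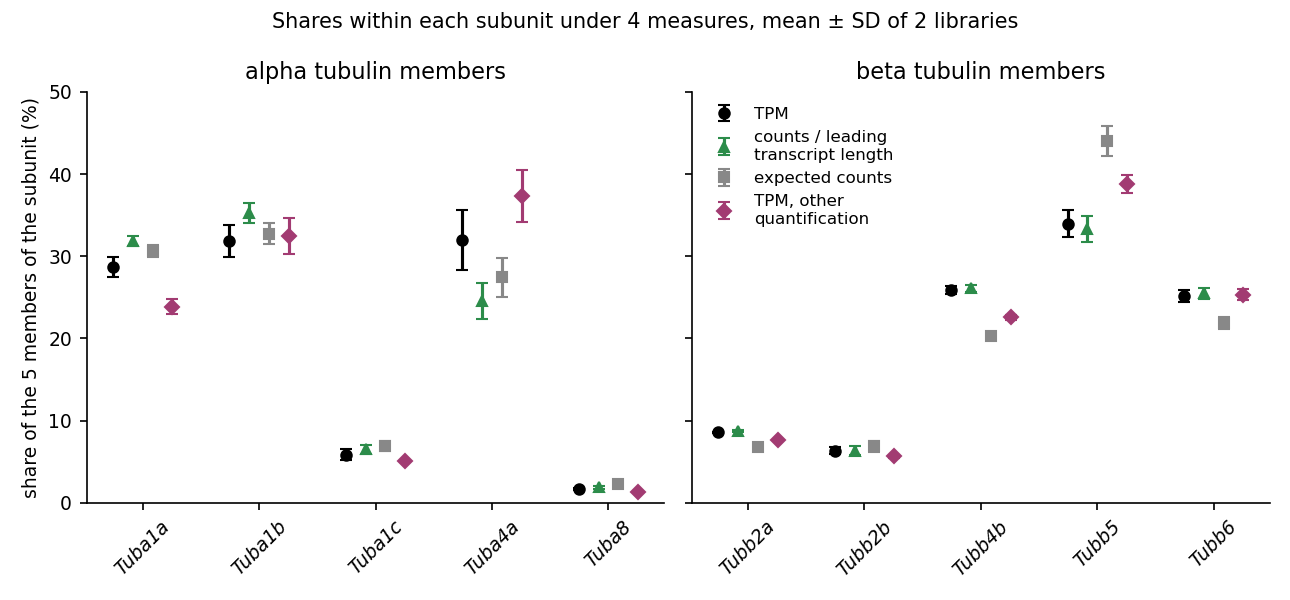
Share of each gene in the 5 members of its subunit (%) under 4 measures, with whiskers for the SD over both libraries; alpha genes on the left, beta genes on the right. Tuba4a ranges from 24.5% to 37.3% and Tubb5 from 33.3% to 44.1%, while Tuba1c, Tuba8, Tubb2a and Tubb2b stay at 8.72% or less.

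Much of the sequence of 6 members cannot be assigned to a single gene by a read of 100 nt, the read length implied by effective lengths 99 nt below the full lengths. For each member, every window of 100 nt of the transcript with the most counts was looked up in all GENCODE M21 transcripts of other genes. Transcripts were read in their sense orientation, whatever their genomic strand, and reverse complements were not searched. Tuba1b shared 69.5% of 1644 windows, Tuba1a 65.1% of 1704 and Tuba1c 53.4% of 1883. Tubb2a shared 36.9% of 1511 windows and Tubb2b 27.7% of 2083, nearly all with each other, and Tubb4b shared 29.2% of 1499, none of them with a protein-coding gene and all with pseudogenes. Tuba4a, Tuba8, Tubb5 and Tubb6 shared none. The same 4 members had a deposited posterior SD of 0 for their counts in both libraries, and the other 6 had SDs of 0.199% to 3.62% of the count, the largest for Tuba1c in replicate 1. A read that falls wholly within a stretch such as the following cannot be assigned to a single Tuba1 gene. These 100 bases of Tuba1b begin at coding position 35 and occur unchanged in Tuba1a, Tuba1c, the processed pseudogene Gm14150 and the annotated coding gene Gm49450, which spans Tuba1a and Tuba1b and had 0 counts.
Tuba1b, chr15:98933065-98933164, minus strand: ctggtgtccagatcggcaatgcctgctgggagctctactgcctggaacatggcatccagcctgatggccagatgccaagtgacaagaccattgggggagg

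**Figure D3:**
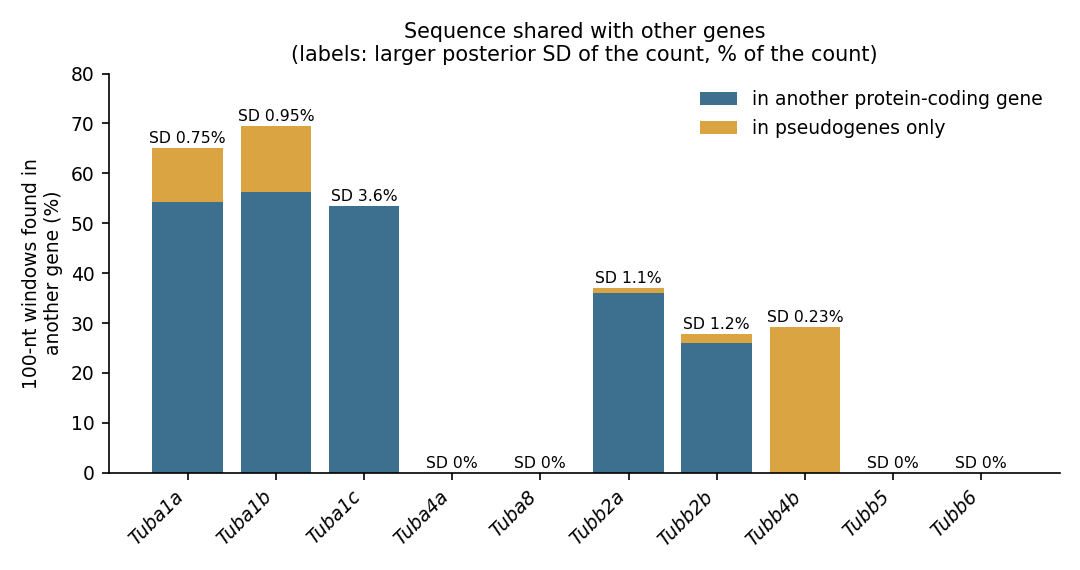
Percent of the 100-nt windows of each member's main transcript that also occur in another gene, split into windows found in a protein-coding gene and windows found in pseudogenes only; the label over each bar is the larger of both libraries' posterior SDs of the count. Tuba1b is highest at 69.5%, Tubb4b shares with pseudogenes only, and the 4 members with no shared window have an SD of 0.

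Processed pseudogenes, intronless copies made from spliced mRNA, were given counts beside the Tuba1 family, and whether these reads came from the copies or from the Tuba1 genes was not tested. The 8 such alpha pseudogenes held, in the gene tables, 18.2% as many counts as the 5 alpha members in replicate 1 and 17.9% in replicate 2, and 5 of them averaged 10 counts or more. Gm14150 (chromosome 2, 151458956 to 151460309) had 2093 and 2447 counts, Gm3226 (chromosome 13, 112593743 to 112595084) 1550.09 and 1942, and Gm6682 (chromosome 12, 4782170 to 4783515) 659 and 689. Gm5620 on chromosome 9 had 22.8 and 35.2 counts, and Gm3756 on the same chromosome 18.8 and 8.78.

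The quantifications disagreed on these copies more than on the members. In the other quantification Gm14150 had 15.7 counts in replicate 1 and 42.6 in replicate 2, and Gm6682 67.2 and 135, while Gm3226 had 1723 and 2129.87. Tuba1b there had 9308 and 10393 counts, 1.16 and 1.14 times its 8052 and 9147 in the gene tables. The 8 alpha pseudogenes there held 7.46% and 7.94% as many counts as the members. Gm14150 and Gm6682 thus had far fewer counts in the other quantification than in the gene tables, and Gm3226 did not.

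The 4 beta pseudogenes held few counts, 1.33% and 1.35% as many as the 5 beta members in replicates 1 and 2 of the gene tables, and 2.02% and 2.07% as many in the other quantification. Tubb4b-ps1 (chromosome 5, 7179365 to 7180700) had 306 and 384 counts and Gm16165 (chromosome 9, 22669734 to 22670528) 47.0 and 42.1. Tubb4b itself had 5410.25 and 6577 counts. With the TPM of pseudogenes added to each subunit, the ratio of alpha to beta was 1.28, and the pooled Tuba1 genes held 53.9% of alpha.

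**Figure D4:**
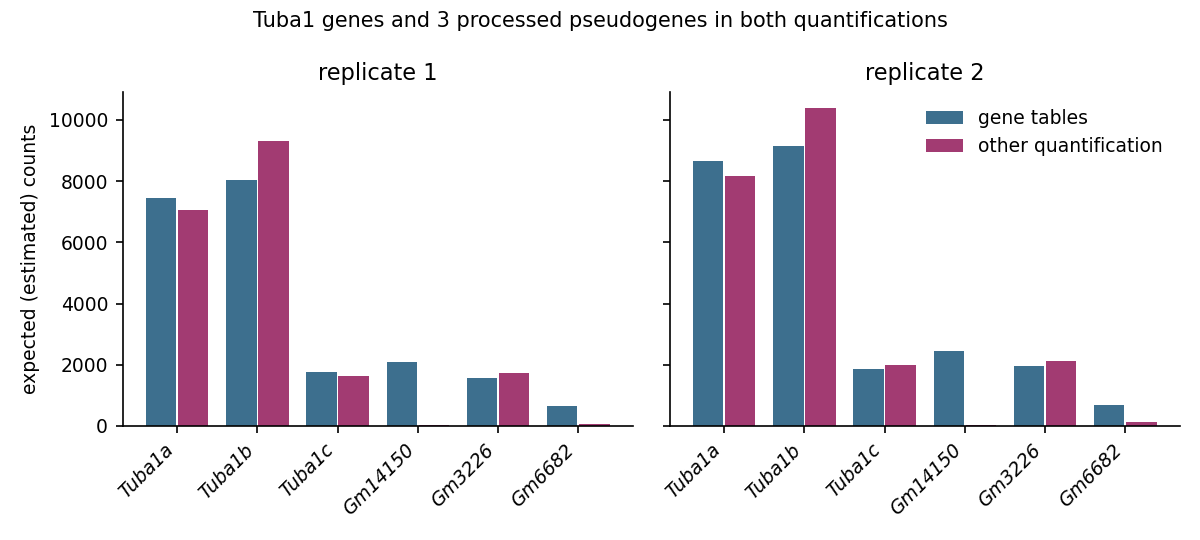
Expected or estimated counts of the 3 Tuba1 genes and 3 processed pseudogenes in the gene tables and in the other quantification, replicate 1 on the left and replicate 2 on the right. Gm14150 stands at 2093 and 2447 counts in the gene tables and at 15.7 and 42.6 in the other quantification, whereas Gm3226 stands at like heights in both.

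Genes on the opposite strand overlap 4 members, and their reads could be mixed with those of the members, since no source used here gives the strand setting of the counting. Stk16, a kinase gene, overlaps Tuba4a over 1379 nt and had 611 and 654 counts in replicates 1 and 2, against 6168 and 8367 for Tuba4a. Fam166a overlaps Tubb4b over 121 nt and had 1 count in each library. The antisense genes Gm41396 at Tuba1b (6 counts and 1 count) and Gm15856 at Tuba8 (0 counts in both) held next to nothing.

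In the authors' transcript tables, 9 members were dominated by a single annotated form and Tuba4a was divided. The leading transcript held a mean of 95.0% of the TPM of Tubb5, 98.1% of Tubb2b, 98.6% of Tubb4b, 99.2% of Tubb6, 99.5% of Tuba1b and 99.7% of Tuba1c. Tuba1a, Tuba8 and Tubb2a have a single annotated transcript.

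Tuba4a has 8 annotated transcripts, 6 of them incomplete in the annotation, 3 without a coding start and 3 without a coding end. Tuba4a-201 (2083 nt, no coding start) held 45.8% of its TPM in replicate 1 and 42.0% in replicate 2. Tuba4a-206 (1205 nt, no coding start) held 36.3% and 35.2%, and Tuba4a-207 (346 nt, no coding end) 13.1% and 18.6%. Tuba4a-202 (2840 nt), which holds the complete coding sequence, held only 1.91% and 1.32%. In counts, Tuba4a-207 had 141 in replicate 1 and 290.4 in replicate 2 of the 6168 and 8367 of the gene, a small number of reads with a large share of TPM because the transcript is short.

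The other quantification divided Tuba4a differently. There Tuba4a-201 held 22.7% in each library, against 45.8% and 42.0% in the transcript tables. Tuba4a-206 held 46.3% in replicate 1 and 44.4% in replicate 2, Tuba4a-203 (782 nt) 28.5% and 31.0%, against 0.11% and 0 in the transcript tables, and Tuba4a-207 held 0. Differences between quantifications were also seen for retained-intron forms. Tubb5-204 held 2.87% and 3.36% of Tubb5 TPM in the transcript tables, and 27.0% and 31.3% in the other quantification. Tubb6-202 held 0.91% and 0.74%, and 11.5% and 10.8% there. The processed transcript Tubb2b-202 held 3.83% and 0, and 22.0% and 14.9% there.

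**Figure D5:**
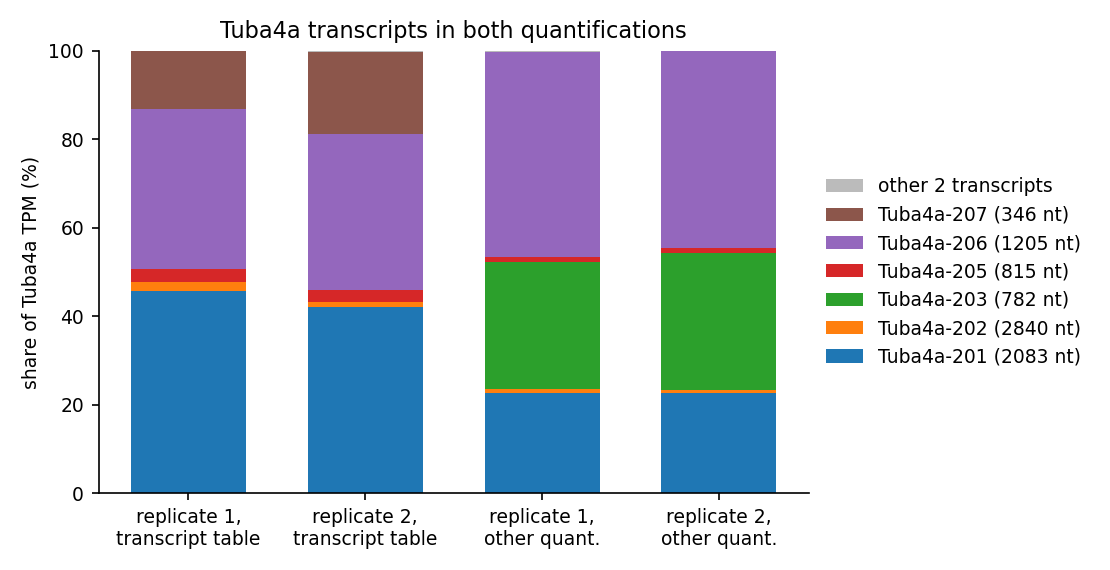
Share of Tuba4a TPM (%) held by each annotated transcript, with its length, in both libraries and both quantifications; segments of a bar sum to the whole gene. Tuba4a-207 is seen only in the transcript tables (13.1% and 18.6%) and Tuba4a-203 is large only in the other quantification (28.5% and 31.0%), while the libraries resemble each other within a quantification.

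Between the animals the ratios of the tubulin genes lay within 1.5-fold, as did those of nearly all genes. No member was 1.5-fold apart (0 of 10), where 2.46% of 12256 genes averaging 100 counts or more were, so a count of 0 is no different from the background. All 10 members passed that minimum. With none 1.5-fold apart, none could be 2-fold apart, where 0.718% of those genes were. The log2 ratio of replicate 1 over replicate 2, scaled by the trimmed mean of M values, was lowest for Tuba8 at -0.28 (508 and 700 counts), Tuba4a at -0.26 (6168 and 8367) and Tubb2b at -0.25 (1732 and 2337). It was highest for Tuba1c at 0.10 (1753 and 1855 counts) and Tubb5 at 0.03 (12286 and 13647). These counts are as deposited, from libraries of unequal depth. Of the 10 members 8 were lower in replicate 1, where 55.3% of those genes were, with a median log2 ratio of -0.08 beside -0.02 for all of them. For scale, the biological coefficient of variation estimated between these libraries was 12.7%.

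Scaling changed how many members were lower. With the ERCC spike-ins, which moved the median log2 ratio of those genes to 0.12, 3 of 10 members were lower in replicate 1, namely Tuba8, Tuba4a and Tubb2b, beside 22.9% of those genes, with a median of 0.06 over the 10. With library size 6 of 10 were lower, beside 43.5% of those genes. In the other quantification all 10 were, Tuba1c at -0.13, beside 58.6%. The 3 lowest members kept a ratio below 0 under each of these scalings. The 5 muscle fibre markers (Acta1, Ckm, Myh8, Mylpf and Ttn) were lower in replicate 1 as well, with a median log2 ratio of -0.26, and summed to 31904 TPM in replicate 1 and 38035 in replicate 2. The 5 Schwann cell markers had a median of -0.45, with sums of 306 and 409 TPM. The 4 red cell markers averaging 100 counts or more had a median of 2.46, with sums of 1233 and 229.7 TPM over the 5 listed. Other lists had median log2 ratios above 0, at 0.13 for fibroblasts (sums of 5392 and 4585 TPM), 0.06 for macrophages (63.5 and 63.2 TPM) and 0.05 for proliferating cells (137 and 132 TPM), while endothelial markers had a median of -0.11 (226 and 209.5 TPM). These marker medians were scaled by the trimmed mean of M values. With the spike-ins the endothelial median was above 0, at 0.03. Those of muscle fibre and Schwann cells stayed below 0, at -0.12 and -0.31, and the others stayed above 0. The part of these cells in the tubulin ratios was not tested.

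Of the 10 tubulin genes outside the members, Tubg1 alone was above 10 TPM, and 3 were at 0 counts. The gamma tubulins nucleate microtubules, and Tubg1 had 13.4 TPM in replicate 1 and 15.2 TPM in replicate 2. Its paralog Tubg2 had 1.5 and 2.61 TPM (69.65 and 137.37 counts, a log2 ratio of -0.78). Of the 3 genes in this list averaging 100 counts or more, Tubg2 alone was 1.5-fold apart, beside 2.46% of all such genes. Counts of both paralogs were fractional (634.35 and 816.63 for Tubg1), as when reads are divided among genes. How far such a division set the Tubg2 ratio was not tested. Tubd1 and Tube1, the delta and epsilon tubulins of centrioles, had means of 1.84 and 1.47 TPM. The beta gene Tubb4a, an isotype of oligodendrocytes and neurons, had 1.69 and 1.86 TPM. Tubb1, the beta tubulin of platelets, had 15 and 4 counts, or 0.41 and 0.10 TPM, and the 5 platelet and megakaryocyte markers summed to 34.2 and 31.9 TPM. Most of that sum was Pf4, with 29.8 and 30.02 TPM, while Itga2b had 2.47 and 1.23 TPM, Ppbp 1.38 and 0.54, Gp9 0.37 and 0, and Gp1ba 0.18 and 0.15. Tuba3a, Tuba3b and Tubal3 had 0 counts in both libraries of the gene tables, where a count of 0 allows up to 3 counts.

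The machinery that folds tubulin was expressed throughout. The CCT chaperonin, a ring in which actin and tubulin fold, had all 8 subunit genes detected, and their median was 78.1 TPM. They were led by Tcp1 (115 TPM in replicate 1 and 112 in replicate 2), Cct5 (89.3 and 93.1), Cct3 (84.3 and 95.7) and Cct2 (78.5 and 83.9). All 13 genes of prefoldin, which hands new chains to CCT, and of the cofactors that join alpha and beta into a dimer were detected (median 23.7 TPM), with the highest levels in the prefoldin genes Pfdn5 (134 TPM in both), Pfdn1 (45.5 and 49.8) and Pfdn2 (41.1 and 37.8) and in the cofactor gene Tbca (65.7 and 64.7). None of these 21 genes was 1.5-fold apart, beside 2.46% of the 12256 genes compared in the same way. That absence is no different from the background.

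Enzymes that modify tubulin were present at lower levels. Of the 19 genes found, 17 were detected, with a median of 5.12 TPM over the 19. The gene Sirt2, which encodes a deacetylase of alpha tubulin, led with 28.6 TPM in replicate 1 and 32.1 TPM in replicate 2. Both parts of the detyrosinating enzyme were among the leading 4, the peptidase genes Vash1 (20.0 and 22.4 TPM) and Vash2 (14.7 and 16.8 TPM) and their partner gene Svbp (22.4 and 23.6 TPM). The carboxypeptidase genes Agbl2 and Agbl4 were under 1 TPM in both libraries. All 3 genes of the autoregulation list were detected, Ttc5 at 11.2 and 10.8 TPM, and Cnot1 (44.8 and 43.5 TPM) and Cnot11 (8.54 and 7.73 TPM), which encode parts of the deadenylase complex that shortens the mRNA.

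Proteins that bind microtubules were led by Map4, the main microtubule-associated protein of muscle, with 177 TPM in replicate 1 and 197 TPM in replicate 2. Of the 15 lattice-binding genes 13 were detected (median 9.49 TPM), with Map7d1 (86.2 and 98.2 TPM), Map1lc3a (74.5 and 86.9) and Dclk1 (35.1 and 37.2) after Map4, and Map9 was under 1 TPM in both. Every one of the 9 plus-end genes was detected (median 24.8 TPM), headed by Dctn1 (55.2 and 53.9 TPM), Clasp1 (45.1 and 44.8), Mapre1 (45.5 and 42.4) and Clip1 (30.6 and 30.7). Of the 12 destabilising and severing genes 10 were detected (median 4.16 TPM). Stathmin Stmn1, which holds free dimers, led them with 61.3 and 65.8 TPM, followed by Kif2a (21.7 and 16.4), Spast (17.3 and 20.5) and Katna1 (7.22 and 7.62). The neuronal stathmin gene Stmn3 had 6 counts in each library. The stathmin genes Stmn2 and Stmn4 were higher than Stmn3, with 2.31 and 2.45 TPM for Stmn2 and 0.64 and 1.13 TPM for Stmn4. Among 15 nucleation genes 14 were detected (median 11.9 TPM), with the highest values for Syne1 (29.5 and 33.6 TPM), a nuclear envelope protein that recruits nucleating factors in muscle, then Pcm1 (26.3 and 26.6), Akap9 (27.8 and 24.7) and Pcnt (20.8 and 22.2), and Ninl was under 1 TPM in both. In these 4 lists no gene averaging 100 counts or more was 1.5-fold apart, beside 2.46% of all 12256 such genes. For lists of this size that absence is no different from the background.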

How the data were processed

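Total RNA-seq of 2 gastrocnemius libraries of 1 group was used. Per the file headers and notes, the authors deposited, per library, gene and transcript tables of expected counts (which need not be whole), TPM, the percent of the gene's TPM for each transcript and posterior SD scores of the counts, and a separate transcript table with estimated counts and TPM, summed here per gene as the other quantification. The build was mm10 with GENCODE M21; the sources used here give no aligner, quantification program or strand setting. CAST/EiJ reads were counted on the C57BL/6J reference. Because the noncoding gene Rn7s1 held 181057 and 179212 TPM in the gene tables, TPM of the quantifications were compared as shares or ratios only. Counts were compared as deposited, without adjustment for unequal totals. These were 30961087 and 36246031 in the gene tables and 29601811 and 34795828 in the other quantification. Effective lengths lay 99 nt below lengths in the gene tables and 349 and 351 nt below in the other quantification.

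Log2 ratios used rounded expected counts, edgeR 4.0.16 (R 4.3.3, limma 3.58.1; TMM over genes averaging 10 counts or more, prior count 2) and, as alternatives, DESeq2 1.42.0 size factors, library size and spike-ins. No p-value can be had from a single library a side. The ratio step was tested on simulated data with less variation between libraries than the 12.7% estimated here. That test checks the calculation and not its behaviour under the noise of these data. Python 3.11.15, pandas 2.3.3, numpy 2.4.6, matplotlib 3.10.9 and Biopython 1.88 served the rest. Coding identity is over aligned bases without gaps. Of 150 listed symbols 149 matched; Matcap1 did not. Named were all members, all other tubulin genes and window-sharing genes averaging 10 counts or more. Of each list, the 4 highest by TPM and those under 1 TPM in both libraries were named. The overlapping genes, Cnot11, Gm49450, Stmn2, Stmn4 and the markers named for levels were added. The members and lists were chosen with earlier results of these data known. The coding ends of some members are not reported here.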

Additional observations from a re-analysis of the deposited data

How the results depend on the processing

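All 10 members reached the detection level at 5 TPM and in the other quantification. They also did at 0.5 TPM and without either library, as genes at 1 TPM in both libraries must. None was 1.5-fold apart under the scalings tried or without the count filter, so none could be 2-fold apart. With all annotated coding genes of a subunit in the sum, each share and the alpha to beta ratio moved by less than the SD. Without replicate 1 or without replicate 2 the shares and the ratio moved by less than the SD, as values of 2 libraries must, with Tuba4a at 34.5% and 29.4%. In the other quantification Tuba1a held 23.8%, Tuba1c 5.07%, Tuba4a 37.3%, Tuba8 1.31% and the pooled Tuba1 genes 61.4% of alpha, and Tubb2a 7.66%, Tubb2b 5.63%, Tubb4b 22.6%, Tubb5 38.8% and the pooled Tubb2 genes 13.3% of beta, with an alpha to beta ratio of 1.18. By expected counts, which are not scaled for length, Tuba1a held 30.6%, Tuba1c 6.89%, Tuba4a 27.4%, Tuba8 2.28% and the Tuba1 genes 70.3%, and Tubb2a 6.83%, Tubb2b 6.86%, Tubb4b 20.3%, Tubb5 44.1%, Tubb6 21.9% and the Tubb2 genes 13.7%, at a ratio of 0.892. With pseudogenes added to the sums, which lowers every share, Tuba1a held 23.3%, Tuba1b 25.9%, Tuba1c 4.75%, Tuba4a 26.0%, Tuba8 1.36% and the Tuba1 genes 53.9%, and Tubb2a 8.40% and Tubb4b 25.3%, at a ratio of 1.28. With the length of the leading transcript, an alternative chosen after seeing the data, Tuba1a held 31.9%, Tuba1b 35.3%, Tuba4a 24.5%, Tuba8 1.87%, the Tuba1 genes 73.6% and Tubb2a 8.72%, at a ratio of 0.971. The cause of the differences between quantifications was not tested. No paired analysis was possible because the series holds a single group.

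With windows of 50 nt, 9 members shared a larger percent of their windows, from 0.115% for Tubb5 to 73.8% for Tuba1b, and Tubb6 shared none. The limits are the 2 libraries, the unknown strand setting, reads shared among the Tuba1 and Tubb2 genes and their pseudogenes, and the incomplete Tuba4a transcripts. For Tuba8, 508 and 700 counts are the smallest of the 10 and set the precision of its values.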
